A study of Homo sapiens with 12 samples.

Results

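The 77 genes described here encode the proteins of the cytosolic ribosome. They were taken from the 44659 genes of the count table by symbol: RPL or RPS followed by a number, with an optional A, L or X at the end, or RPLP0, RPLP1, RPLP2 or RPSA. Of the 81 symbols that matched, 77 had a mean of at least 10 counts over the 12 libraries, and all 77 were among the 15916 genes tested. The small (40S) subunit contributed 31 of them and the large (60S) subunit 46. RPL3L and RPL10L were listed at 0 in every library, and RPL36A and RPS25 had mean counts of 7.75 and 3.58, so these 4 were left out.

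A375 is a human melanoma cell line with an activating BRAF mutation, and RNA depleted of ribosomal RNA was sequenced in 4 groups of 3 libraries. Control cells (CC) were given DMSO, the solvent, for 72 h. Treated cells (TC) were given the BRAF inhibitor vemurafenib at 500 nM together with the MEK inhibitor cobimetinib at 500 nM (MAPKi) for 72 h. Persister cells (PC) had the same 72 h of MAPKi followed by 2 days without drug, and recovered cells (RC) had 9 days without drug. The only DMSO group was taken after the 72 h, so PC and RC had no control of their own age, and drug history and added culture time cannot be told apart in them. Sources used here do not say that the 3 libraries of a group came from separate cultures, so p-values measure the spread between these libraries, which may be technical.

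A ribosome is built from ribosomal RNA and one copy of most ribosomal proteins, with several copies of the acidic proteins of the P stalk, the flexible arm of the 60S subunit that receives the elongation factors. In vertebrates, ribosomal protein mRNAs are 5′ terminal oligopyrimidine (TOP) mRNAs: transcription starts at a C that is followed by a run of C and T (U in the RNA), and this start lets the kinase mTORC1 and the RNA-binding protein LARP1 set how strongly they are translated and stored. Growth signalling through MAPK and MYC is known to raise the making of ribosomes in proliferating cells.

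Total counts ran from 37773389 to 55567097 per library, and TMM factors from 0.965 to 1.02. The melanocyte lineage factor SOX10 stood at 539 to 1067 CPM (counts scaled to the same TMM-normalized library size) in the 12 libraries. It and the other melanocyte lineage markers moved with the groups: of 8, 6 were higher and 1, S100B, lower in TC than in CC, 6 higher and 1, MITF, lower in PC, and 4 lower in RC. MITF, another lineage factor, changed by -0.71 ± 0.25 in PC (adjusted p = 0.0230) and was not called in TC or RC. DCT, a pigment enzyme, stood at 444, 337 and 440.5 CPM for CC, 7866, 6231 and 5261 for TC, 3177, 2672 and 1955 for PC and 436, 429.9 and 396 for RC, and PMEL, a pigment granule protein, changed by 3.13 ± 0.26 on the log2 scale in TC. The summed level of 10 markers of keratinocytes, other epithelia, leukocytes, endothelium and fibroblasts was 4.23 to 6.86 CPM for CC, 3.32 to 3.81 for TC, 6.12 to 8.69 for PC and 4.24 to 5.44 for RC, and KRT1 was at 0 in all libraries. Of the 4 with enough counts to be tested, 1 was higher and 2 lower in TC, 2 higher and 2 lower in PC, and 0 were called in RC. For these and the melanocyte markers, the background over all genes tested was 33.2% higher and 34.7% lower in TC. It was 33.2 and 35.9% in PC, and 18.2 and 19.1% in RC. The keratin KRT14 stood at 2.30, 1.93 and 2.64 CPM in PC and at no more than 0.0452 CPM in any CC library, COL1A1 changed by 2.70 ± 0.44 in PC, and PTPRC by -3.55 ± 0.56 and VWF by -0.99 ± 0.19 in TC. The 24 genes named as mitochondrial rRNAs and tRNAs took 1.57 to 2.42% of the counts in CC, 3.11 to 3.73% in TC, 2.41 to 3.00% in PC and 1.47 to 1.54% in RC. The part of these markers and mitochondrial genes in the results below was not tested, beyond the share outside the mitochondrial genes given next. In bulk RNA, fewer cells and less RNA per cell cannot be told apart, and every level is relative to the other RNA of its library.

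Ribosomal protein mRNAs took a smaller share of the library under MAPKi, and part of that share came back after the drug was removed. In CC they held 6.96, 7.39 and 6.59% of all counts (mean 6.98 ± 0.398% (SD, n = 3)). In TC the shares were 4.09, 4.10 and 3.89% (4.03 ± 0.119%), in PC 5.14, 5.37 and 5.25% (5.25 ± 0.117%), and in RC 5.74, 5.80 and 5.97% (5.84 ± 0.120%). The 4 groups did not overlap, and their order was CC, RC, PC and TC from the highest to the lowest. Relative to CC, the mean share was 57.7% in TC, 75.2% in PC and 83.6% in RC. Counted outside the mitochondrial rRNAs and tRNAs, the mean shares were 7.13% in CC, 4.17% in TC, 5.40% in PC and 5.93% in RC, in the same order. The 50 entries named as numbered copies or pseudogenes of the 77 genes would have added 0.267 to 0.412% to the counts of the 77.

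**Figure D1:**
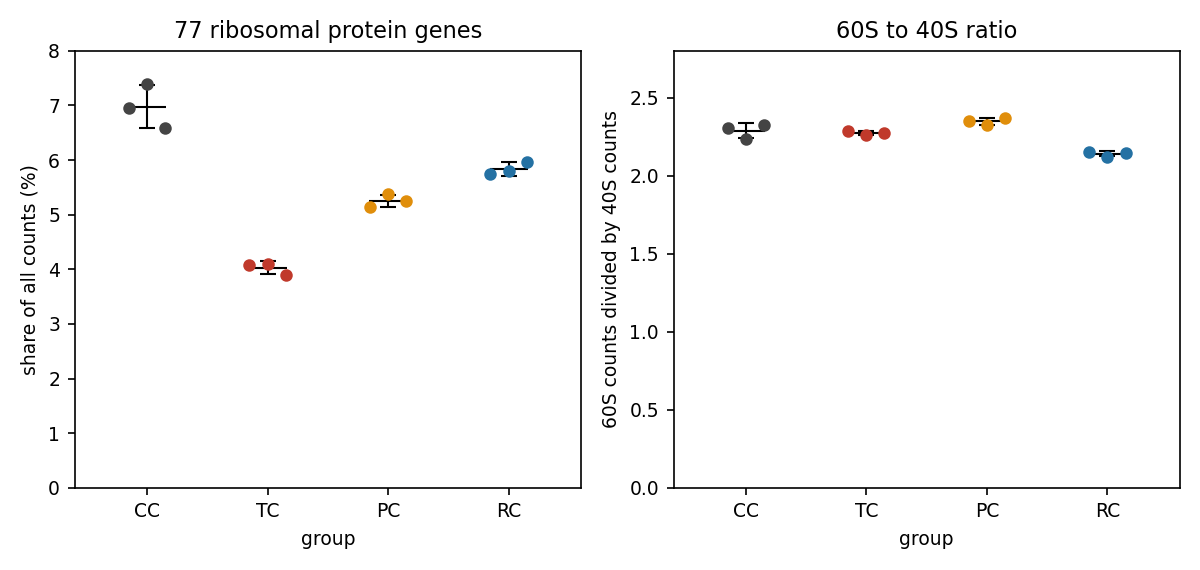
Left, the share of all counts held by the 77 ribosomal protein genes in each of the 12 libraries, in percent, by group; right, the counts of the 60S genes divided by those of the 40S genes. Points are libraries, and bars give the mean ± SD (n = 3): the shares do not overlap between groups, with TC lowest at 3.89 to 4.10%, and the ratio is lowest in RC at 2.12 to 2.15.

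The counts of both subunits were lower in TC. The 40S genes took 2.12 ± 0.152% of counts in CC and 1.23 ± 0.0374% in TC (SD, n = 3), and the 60S genes 4.85 ± 0.247% and 2.8 ± 0.0822%. The ratio of 60S to 40S counts was 2.29 ± 0.0483 in CC, 2.28 ± 0.0118 in TC, 2.35 ± 0.0224 in PC and 2.14 ± 0.0173 in RC. The RC libraries, at 2.12 to 2.15, lay below every CC library (2.23 to 2.32), the PC libraries, at 2.33 to 2.37, lay above every CC library, and the TC libraries lay within the CC range.

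Because the start site is what marks these mRNAs as a class, the first bases of 11 of them are given here. Each is 30 bases of the coding strand from RefSeq (GRCh38.p14), read 5′ to 3′: 10 bases before the annotated start and 20 from it, with the run of C and T that begins at a starting C in capitals. The first 8 are genes with such a start, chosen to cover the range of responses, and the last 3 are, of the genes without one, those least lowered in TC. They lie, in the order shown, at chr11:75399508-75399537 (plus strand), chr9:127451387-127451416 (minus), chr22:39319604-39319633 (minus), chr12:120201092-120201121 (minus), chr9:19380217-19380246 (minus), chr19:49487598-49487627 (plus), chr19:55385922-55385951 (plus), chr12:56116623-56116652 (plus), chr12:56041908-56041937 (plus), chrX:72277229-72277258 (minus) and chr15:63157458-63157487 (minus), each spanning an annotated transcript start.
RPS3: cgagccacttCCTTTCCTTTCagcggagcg
RPL12: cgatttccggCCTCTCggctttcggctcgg
RPL3: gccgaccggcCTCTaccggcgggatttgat
RPLP0: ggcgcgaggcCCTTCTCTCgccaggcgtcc
RPS6: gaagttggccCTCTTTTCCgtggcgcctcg
RPL13A: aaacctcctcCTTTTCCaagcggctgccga
RPL28: cctcgccttcCTCTTTCCgtctcaggtcgc
RPL41: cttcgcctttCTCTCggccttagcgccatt
RPS26: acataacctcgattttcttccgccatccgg
RPS4X: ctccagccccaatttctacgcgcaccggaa
RPS27L: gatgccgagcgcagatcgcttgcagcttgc

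Of the 61 members matched in the RefSeq start table, 45 (73.8%) had at least one annotated start at a C within a run of at least 4 C or T, against 9.01% of 11587 tested genes and 5.45% of all 35116 starts of the table. The letters CTTTCC on the coding strand within 20 bases of the start were found for 19 of the 61 (31.1%), against 2.92% of the tested genes. In the whole 300-base window, on either strand, CCGGAAG was found for 36.1% of the 61 members and 20.7% of tested genes, GGGCGG for 59.0% and 74.2%, CACGTG for 6.56% and 12.4%, TATAAA for 8.20% and 9.13%, and AAGATGG for 13.1% and 9.11%. The C-start rule was written after earlier results were known, and 10 members had more than 1 start in the table. The median log2 fold change in TC was -0.86 for the 45 with a C start and -0.82 for the 16 without, in ranges that overlapped. The rule reads annotated start bases only, and the starts used in these cells were not measured. A gene without a C start in the table may still be a TOP mRNA, so this split cannot tell TOP from other mRNAs. RPL27 and RPL19, which have no C start in the table, fell by more than the median. Among the 16 members without an entry in that table were RPL23, RPL23A, RPL30, RPL37, RPL39L, RPL5, RPL7, RPL8, RPS15A, RPS2 and RPS20.

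The first comparison asked what 72 h of MAPKi did to these mRNAs. With edgeR's quasi-likelihood test and Benjamini-Hochberg adjustment over all 15916 genes, 73 of the 77 were lower in TC than in CC at an adjusted p under 0.05 and 1 was higher. Over all genes tested, 34.7% were lower and 33.2% higher by the same rule. The members' median log2 fold change was -0.87, or 0.549 times the CC level, beside -0.02 over all genes tested. A fall beyond 1.5-fold (glmTreat, adjusted p of at most 0.05) was called for 54 members, with a background of 19.3%, and a rise beyond 1.5-fold (background 16.1%) for 0, also at an unadjusted p under 0.05 and in DESeq2. All 3 TC libraries lay below all 3 CC libraries for 73 members, where the background was 34.7%. All 46 of the 60S genes fell and 27 of the 31 of the 40S genes, with medians of -0.83 and -0.92.

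In TC most members fell to a like extent. Of the 71 genes with a mean count of at least 1000, 53 lay within 0.25 of their median on the log2 scale in TC against CC, 52 in PC against CC and 62 in RC against CC. Such counts were not made over all genes, so they have no background. The quartiles of the 71 were -0.99 and -0.66 in TC, against -0.50 and 0.51 for all 7541 genes with such a mean count. In PC they were -0.57 and -0.28, against -0.56 and 0.50. In RC, where all genes spread less, they were -0.33 and -0.20, against -0.20 and 0.23. Across these 71 genes, which share the same libraries, Spearman's rho of the TC fold change was 0.10 with transcript length, -0.21 with coding length, 0.01 with the share of Lys and Arg codons, -0.09 with that of Asp and Glu codons and 0.12 with the mean count. In RC against CC rho was -0.41 with the mean count and -0.33 with transcript length.

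**Figure D2:**
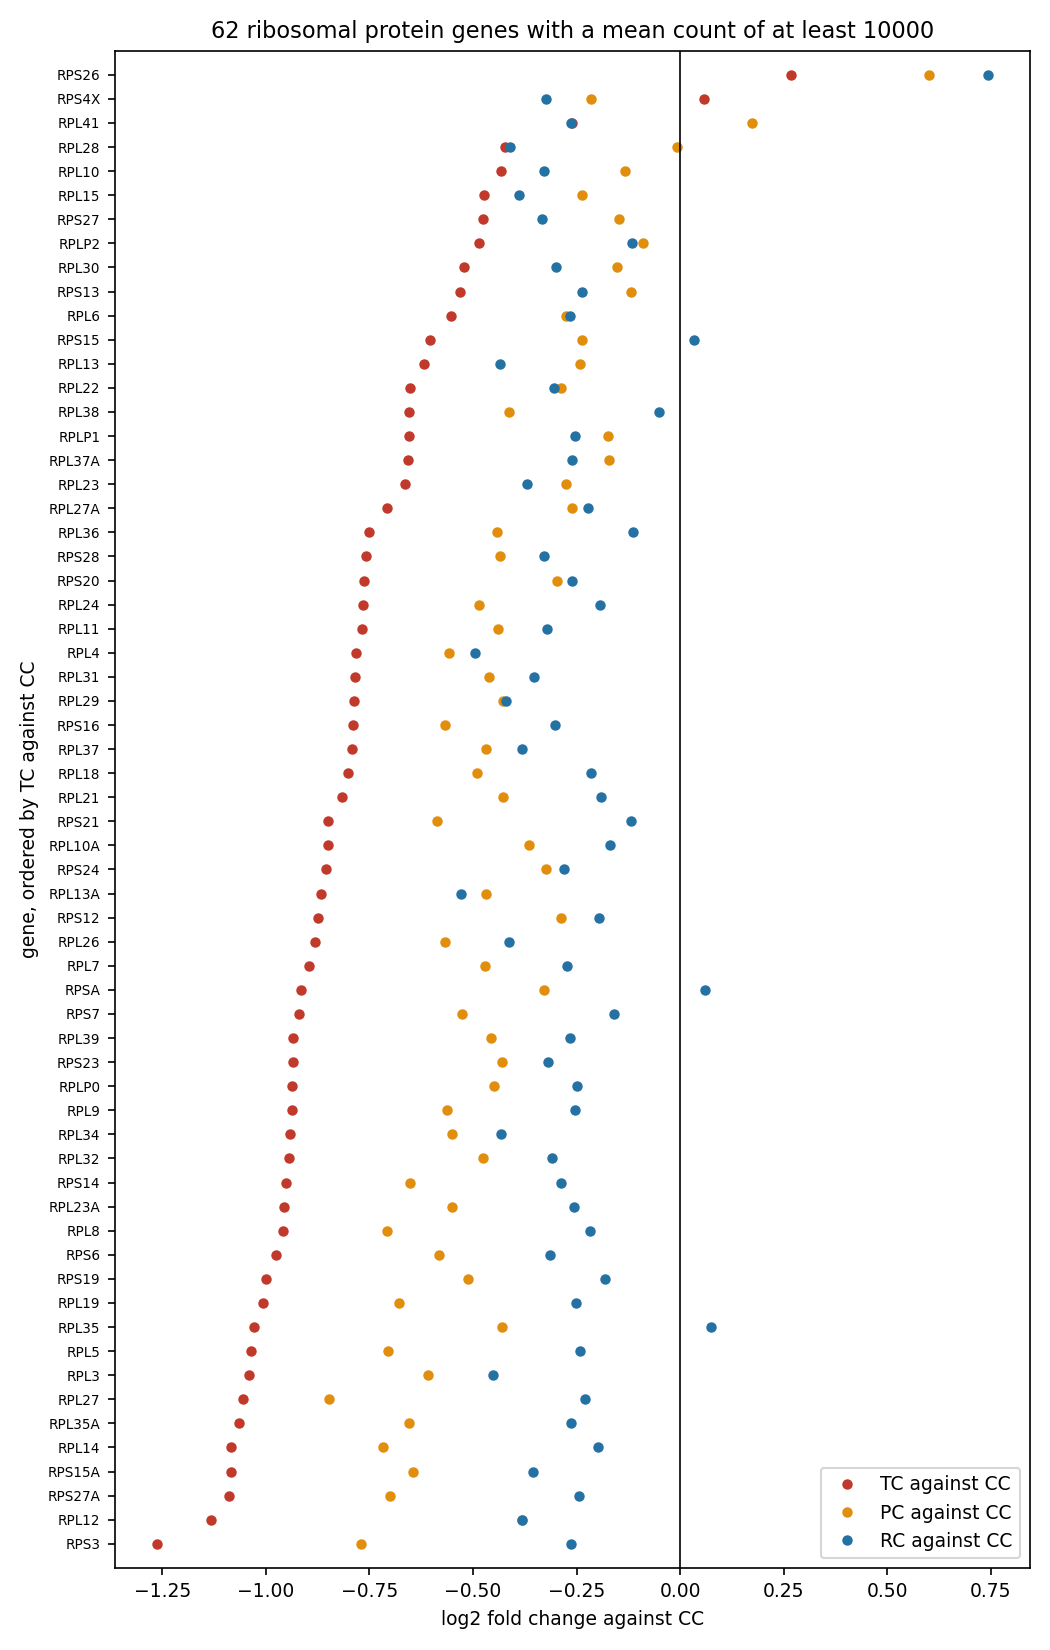
Log2 fold changes against CC (x axis) of 62 ribosomal protein genes with a mean count of at least 10000 (y axis, ordered by TC), with TC in red, PC in orange and RC in blue. RPS3 was the lowest in TC at -1.26, 60 of the 62 lay below 0 there, and RPS26 was above 0 in all 3 groups; all 3 comparisons share the CC libraries.

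In the 40S subunit, RPS3, which lies at the entry of the mRNA channel, had the largest fall in TC among genes with at least 10000 counts and is named after its values were seen. It stood at 1282, 1404 and 1215 CPM for CC, 542, 550.0 and 532 for TC, 728, 783 and 775 for PC and 1049, 1088 and 1113 for RC. No group overlapped another, and TC lay lowest, followed by PC and RC. The log2 fold change was -1.26 ± 0.06 in TC (± SE, adjusted p = 4.65e-09), -0.77 ± 0.06 (adjusted p = 2.88e-07) in PC and -0.26 ± 0.06 (adjusted p = 0.00542) in RC. RPS6, the substrate of the S6 kinases, stood at 1176, 1201 and 1144 CPM for CC, 591, 596 and 602 for TC, 735, 814 and 804 for PC and 888, 963 and 981 for RC, again with no overlap between groups. Its log2 fold change was -0.98 ± 0.06 (adjusted p = 2.46e-08) in TC and -0.31 ± 0.06 (adjusted p = 0.00138) in RC. RPS27A, which is made as a fusion with ubiquitin, changed by -1.09 ± 0.07 in TC (adjusted p = 3.4e-08), -0.70 ± 0.07 in PC (adjusted p = 1.5e-06) and -0.24 ± 0.07 in RC (adjusted p = 0.0135), the last not called without RC 1 (adjusted p of 0.0577) or with all genes of at least 2 summed counts tested (0.0552).

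RPS19 and RPS14 are known from inherited and acquired anaemias, RPS19 from Diamond-Blackfan anaemia and RPS14 from the 5q- syndrome. RPS19 fell to 0.50 times the CC level in TC (log2 -1.0 ± 0.07, adjusted p = 9.77e-08) and was not called in RC (log2 -0.18 ± 0.07, adjusted p = 0.0577). The RC difference was called without the third CC library (adjusted p of 0.00957) and by DESeq2 (0.0472). RPS14 was lower in all 3 groups, with log2 fold changes of -0.95 ± 0.06 in TC, -0.65 ± 0.06 in PC and -0.29 ± 0.06 in RC (adjusted p = 0.00329). RPSA, a 40S protein also known as the laminin receptor precursor, stood at 969, 1108 and 888 CPM for CC, 491, 536 and 544 for TC, 733, 838 and 791 for PC and 1008, 1042 and 1043 for RC. TC lay lowest and PC next, without overlap with each other or with CC, while RC lay within the range of CC. Its log2 fold change was -0.92 ± 0.08 (adjusted p = 8.61e-07) in TC, -0.33 ± 0.08 (adjusted p = 0.00327) in PC and 0.06 ± 0.08 (adjusted p = 0.592) in RC, and between PC and RC it rose by 0.39 ± 0.08 (adjusted p = 0.000997).

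A pair of abundant 40S genes did not follow the rest. RPS26, which lies where the mRNA leaves the small subunit, was the only member called higher in TC, and it was higher in PC and RC too. It stood at 233, 283 and 228 CPM for CC, 280.0, 306 and 310.3 for TC, 351, 396 and 382 for PC and 433, 431 and 382 for RC. The PC and RC libraries all lay above every CC library, while the lowest TC library lay below the highest CC library. The log2 fold change was 0.27 ± 0.09 (adjusted p = 0.0192) in TC, 0.60 ± 0.09 (adjusted p = 7.61e-05) in PC and 0.74 ± 0.09 (adjusted p = 0.000107) in RC. The rise in TC was not called when any 1 of 4 libraries was left out (CC 1, CC 3, TC 2 or TC 3, adjusted p of 0.0552 to 0.0746) or when only CC and TC were fitted (0.0527), while those in PC and RC were called under every alternative. RPS4X, another protein of the 40S body, stood at 1554, 1667 and 1438 CPM for CC, 1630, 1621 and 1595 for TC, 1332, 1351 and 1333 for PC and 1196, 1233 and 1295 for RC. TC lay within the CC range, and PC and RC lay below both. It changed by 0.06 ± 0.06 in TC (adjusted p = 0.408), -0.21 ± 0.06 in PC (adjusted p = 0.00598) and -0.32 ± 0.06 in RC (adjusted p = 0.00123). The PC call was lost with all genes of at least 2 summed counts tested (adjusted p of 0.0632). It was also the only member that was lower in PC than in TC, by a log2 fold change of -0.27 ± 0.06 (adjusted p = 0.00534).

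In the 60S subunit, RPL3, which reaches the peptidyl transferase centre, stood at 2610, 2614 and 2382 CPM for CC, 1237, 1248 and 1210 for TC, 1617, 1672 and 1698 for PC and 1800, 1857 and 1904 for RC, with no overlap between any 2 groups. Its log2 fold change was -1.04 ± 0.05 (adjusted p = 6.04e-09) in TC and -0.45 ± 0.05 (adjusted p = 7.92e-05) in RC. RPL4, which lines the exit tunnel, was lower in all 3 groups, at -0.78 ± 0.05 in TC, -0.56 ± 0.05 in PC and -0.50 ± 0.05 in RC (adjusted p = 3.1e-05). RPL13A, known from interferon-dependent silencing of translation, had the highest level per length of all members in CC, 2947 ± 108 CPM per kb of transcript (SD, n = 3). It stood at 3305, 3450 and 3209 CPM for CC, 1887, 1835 and 1745 for TC, 2377, 2351 and 2472 for PC and 2320, 2259 and 2328 for RC. All TC, PC and RC libraries lay below CC, and the PC and RC libraries were separate from each other by a narrow gap. RPL13A had the largest fall in RC of the members called there, -0.53 ± 0.05 (adjusted p = 3.05e-05), and was not called between RC and PC (-0.06 ± 0.05, adjusted p = 0.303).

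The next levels per length in CC were those of RPL41 (2601 ± 167 CPM per kb), RPS20 (2393 ± 278), RPL19 (2268 ± 156) and RPL27 (2205 ± 146). Lengths are those of the canonical GENCODE v44 transcript, which was not the annotation used for counting and runs to 7573 bases for a member, so a level per kb is approximate. RPL19, in a bridge between the subunits, changed by -1.01 ± 0.06 in TC (adjusted p = 1.35e-08) and RPS20, in the head of the 40S subunit, by -0.76 ± 0.08 (adjusted p = 2.19e-06). RPL27 stood at 1089, 1196 and 1055 CPM for CC, 532, 549 and 526 for TC, 608, 634 and 613 for PC and 957, 939 and 953 for RC. PC lay just above TC and RC just below CC, with no overlap between groups. Its log2 fold change was -0.85 ± 0.06 (adjusted p = 5.61e-08) in PC, where it was the largest fall among abundant members, and 0.62 ± 0.06 (adjusted p = 8.37e-07) in RC against PC.

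RPL5 and RPL11, which with the 5S rRNA bind MDM2 when ribosome assembly fails, were both lower. RPL5 stood at 685, 727 and 657 CPM for CC, 337, 340.2 and 331 for TC, 413, 438 and 418 for PC and 576, 591 and 581 for RC, with no overlap between groups. The change was -1.04 ± 0.05 (adjusted p = 7.5e-09) in TC and -0.24 ± 0.05 (adjusted p = 0.00405) in RC. RPL11 changed by -0.77 ± 0.06 in TC (adjusted p = 2.02e-07) and -0.32 ± 0.06 in RC (adjusted p = 0.00124). RPL38, known from its part in Hox mRNA translation in mice, changed by -0.65 ± 0.09 in TC (adjusted p = 2.69e-05) and by -0.05 ± 0.09 in RC (adjusted p = 0.681). RPL10, a late addition to the 60S subunit, changed by -0.43 ± 0.05 in TC (adjusted p = 5.68e-06), and was lower in RC than in PC (-0.20 ± 0.05, adjusted p = 0.00292), though not with all genes of at least 2 summed counts tested (adjusted p of 0.0506).

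The 3 P stalk genes all fell in TC. RPLP0, the anchor of the stalk, stood at 2490, 2582 and 2166 CPM for CC, 1198, 1233 and 1350 for TC, 1674, 1805 and 1824 for PC and 1960, 2052 and 2077 for RC. TC lay lowest and all groups were apart. RPLP1, which with RPLP2 draws the elongation factors to the ribosome, stood at 1446, 1682 and 1458 CPM for CC, 944, 979 and 988 for TC, 1259, 1379 and 1426 for PC and 1232, 1309 and 1306 for RC. RPLP2 stood at 586, 668 and 593 CPM for CC, 439, 439 and 441 for TC, 551, 600.3 and 583 for PC and 549.6, 566 and 588 for RC. For both, TC lay below every other library. The PC and RC libraries of RPLP1 lay below CC, and those of RPLP2 overlapped CC. In TC the log2 fold change was -0.94 ± 0.07 for RPLP0 (adjusted p = 2.65e-07), -0.66 ± 0.07 for RPLP1 (adjusted p = 4.17e-06) and -0.49 ± 0.06 for RPLP2 (adjusted p = 2.09e-05). In RC it was -0.25 ± 0.07 (adjusted p = 0.0185), -0.25 ± 0.07 (adjusted p = 0.0138) and -0.12 ± 0.06 (adjusted p = 0.161). Differences between these genes were not tested. The RC call for RPLP0 was lost without CC 1, CC 2 or RC 1 (adjusted p of 0.0545 to 0.0723) and that for RPLP1 without RC 1 (0.0644). With all genes of at least 2 summed counts tested, both were lost (adjusted p of 0.0982 and 0.0711). RPLP1 was also called lower in PC than in CC, but that call was kept in only 6 of 19 alternatives (adjusted p of 0.0252 to 0.174).

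RPL41, RPL28 and RPL12 are 60S genes with large changes between TC, PC and RC. RPL41, whose protein is the shortest of the ribosome at 25 codons, stood at 1781, 1859 and 1636 CPM for CC, 1436, 1485 and 1480 for TC, 1784, 2165 and 2002 for PC and 1460, 1460 and 1472 for RC. TC and RC lay below every CC library, and 2 of the 3 PC libraries lay above all of them. The change was -0.26 ± 0.07 (adjusted p = 0.00570) in TC, 0.17 ± 0.07 (adjusted p = 0.0438) in PC and -0.26 ± 0.07 (adjusted p = 0.0117) in RC. The RC call was lost with all genes of at least 2 summed counts tested (adjusted p of 0.0663). The rise in PC was lost under that setting (0.127), when only CC and PC were fitted (0.0778), and without CC 1, CC 3, TC 2, PC 2, PC 3 or RC 2 (adjusted p of 0.0505 to 0.193), whereas the fall from PC to RC, -0.44 ± 0.07 (adjusted p = 0.000130), was called under every alternative. RPL28, another 60S protein, stood at 1031, 1126 and 1051 CPM for CC, 832, 785 and 775 for TC, 1068, 1067 and 1057 for PC and 823, 761 and 831 for RC. PC lay within the CC range, and TC and RC lay below it. Its change was -0.42 ± 0.06 in TC (adjusted p = 3.06e-05), -0.01 ± 0.06 in PC (adjusted p = 0.915) and -0.41 ± 0.06 in RC (adjusted p = 0.000231). RPL12, at the base of the P stalk, had the second largest fall in TC among members with at least 10000 counts and the largest rise from TC to PC among them. It stood at 1031, 1050 and 997 CPM for CC, 453, 479 and 472 for TC, 757, 796 and 809 for PC and 777, 769 and 815 for RC. Levels in PC and RC overlapped, between TC and CC. The change was -1.13 ± 0.05 (adjusted p = 3.06e-09) in TC and 0.75 ± 0.05 (adjusted p = 2.14e-06) from TC to PC.

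**Figure D3:**
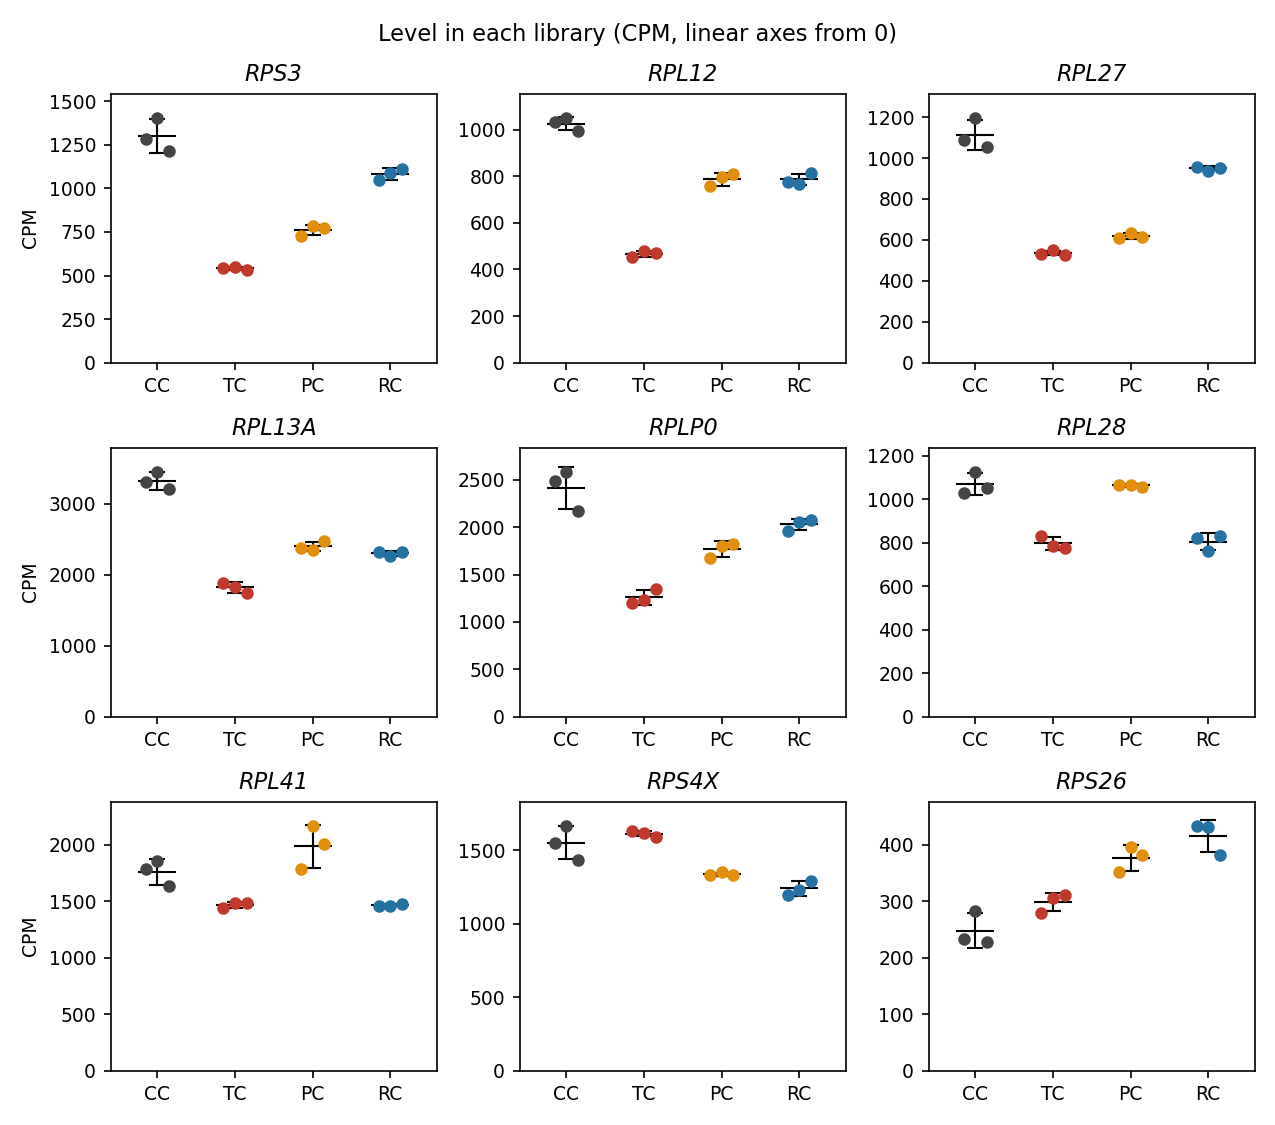
Level of 9 members (CPM, linear axes from 0) in each library of CC, TC, PC and RC; points are libraries and bars the mean ± SD (n = 3). RPS3, RPL12, RPL27, RPL13A and RPLP0 fell in TC, RPL28 and RPL41 overlapped CC in PC and lay below it in TC and RC, the TC libraries of RPS4X lay within the CC range, and RPS26 was highest in RC at 382 to 433 CPM.

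The symbols also take in a pair of paralogs. RPL39L is a copy of RPL39 best known from the germ line. It stood at 35.1, 46.2 and 31.7 CPM for CC, 16.3, 17.1 and 14.7 for TC, 18.6, 19.6 and 17.2 for PC and 49.0, 47.1 and 47.3 for RC. TC and PC lay far below CC, and all RC libraries lay above all CC libraries. The log2 fold change was -1.23 ± 0.12 (adjusted p = 2.4e-06) in TC, -1.03 ± 0.12 (adjusted p = 1.06e-05) in PC and 0.34 ± 0.12 (adjusted p = 0.0414) in RC, and 1.37 ± 0.12 (adjusted p = 8.01e-07) from PC to RC. The RC rise over CC was lost without CC 1, CC 3, TC 1, TC 2, PC 1, PC 2 or any 1 RC library (adjusted p of 0.0503 to 0.13) and when only CC and RC were fitted (0.0885), whereas the rise over PC was called in each case. The parent RPL39 stood at 499, 586 and 500.2 CPM for CC, 268, 298 and 264 for TC, 356, 412 and 388 for PC and 425, 450.4 and 445 for RC, with RC below CC. Its change was -0.93 ± 0.08 in TC, -0.46 ± 0.08 in PC and -0.27 ± 0.08 in RC (adjusted p = 0.0223), where the call was lost without CC 2 or any 1 RC library (adjusted p of 0.0543 to 0.0880). RPS27L, a p53 target and copy of RPS27, stood at 80.7, 100.3 and 80.7 CPM for CC, 76.5, 83.5 and 85.9 for TC, 87.3, 102 and 97.6 for PC and 90.9, 96.9 and 90.0 for RC, with TC, PC and RC each overlapping CC. It was not called in any of the 5 comparisons, with -0.09 ± 0.09 in TC (adjusted p = 0.402) and 0.13 ± 0.09 in PC (adjusted p = 0.218). Without CC 2 it was called higher in PC than in CC (adjusted p of 0.0140) and than in TC (0.0289), and higher in PC than in TC also when only these 2 groups were fitted (0.0483). RPS27 changed in TC by -0.48 ± 0.07 (adjusted p = 0.000105) and in RC by -0.33 ± 0.07 (adjusted p = 0.00430). The difference between a paralog and its parent was not tested.

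Some members cannot be read like the rest. RPS2, which lies near the mRNA entry, stood at 118, 3.14 and 69.7 CPM for CC, 1.48, 1.43 and 1.79 for TC, 86.9, 16.2 and 2.17 for PC and 4.51, 41.7 and 53.3 for RC, so the groups except TC spread over more than an order of magnitude within themselves. Its fitted change in TC, -5.33 ± 1.5 (adjusted p = 0.00739), was the largest of all members, and CC 2 lay near the TC level. Its rise from TC to PC, 4.47 ± 1.47 (adjusted p = 0.0444), was lost without any 1 TC library, PC 1, PC 2, RC 2 or RC 3, and with a replicate block (adjusted p of 0.0542 to 0.214). RPS18, a protein of the 40S head, stood at 0.222, 0.181 and 1.80 CPM for CC, 0.13, 0.128 and 0.0746 for TC, 0.262, 0.13 and 0.231 for PC and 0.345, 0.142 and 0.265 for RC. Its fall in TC, -2.74 ± 0.84 (adjusted p = 0.0121), rested on the third CC library, without which the gene was under the minimum mean of 10 counts and was not tested. Mean counts under 100 were also found for RPL17, RPL7A, RPS10, RPS3A and RPS9, at 23.3, 26.4, 28.8, 25.9 and 42.8, against at least 10000 for 66 members. RPL7A and RPS3A are named after their values were seen.

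For several of these the table holds copies that drew more counts than the gene itself. An entry RPS9_7 had a mean of 199.7 counts, RPL7A_1 had 373.6 and RPS18_1 had 79.0. How reads that align to several places were assigned is not given in the sources used here, so the levels of these members are uncertain. Of this group, RPL17 at the tunnel exit and RPS10 in the 40S head were called higher in RC. RPL17 stood at 0.419, 0.497 and 0.550 CPM for CC, 0.155, 0.204 and 0.187 for TC, 0.392, 0.282 and 0.439 for PC and 1.11, 0.908 and 0.908 for RC, with RC above every other library (0.99 ± 0.26, adjusted p = 0.0119 against CC). RPS10 stood at 0.173, 0.361 and 0.677 CPM for CC, 0.440, 0.332 and 0.410 for TC, 0.575, 0.652 and 0.717 for PC and 1.11, 1.05 and 0.983 for RC, with RC again highest (1.36 ± 0.38, adjusted p = 0.0142), a call that was lost when only CC and RC were fitted (adjusted p of 0.0532). RPS9 was called lower in TC (-1.07 ± 0.25, adjusted p = 0.00215) and PC (-0.79 ± 0.24, adjusted p = 0.0118).

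**Figure D4:**
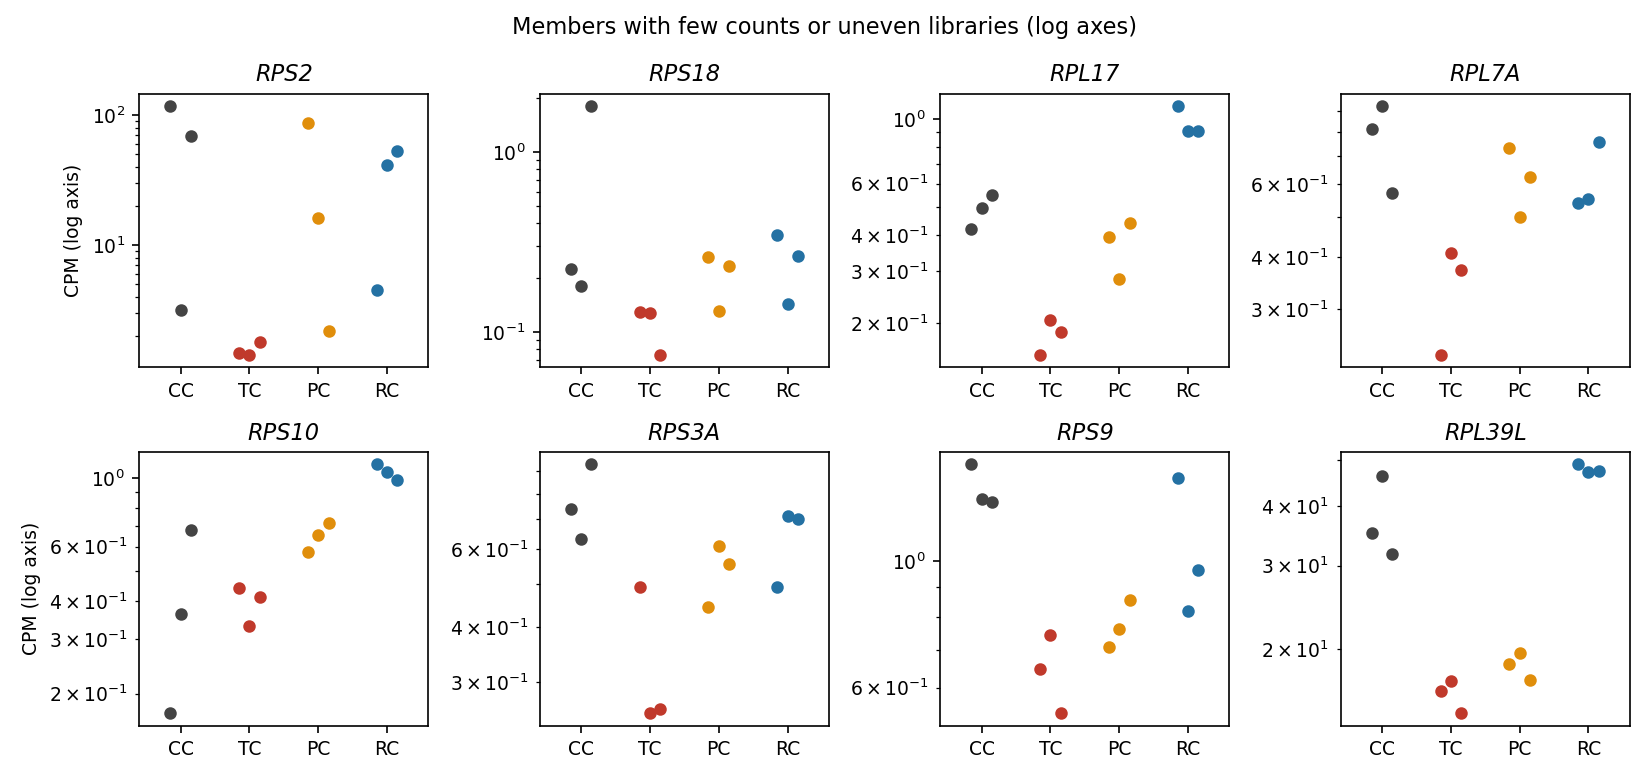
Level (CPM, log axes that differ between panels) in each library of 7 members with few counts or uneven libraries, and of RPL39L. In RPS2 single libraries of CC, PC and RC stand close above TC at 3.14, 2.17 and 4.51 CPM, in RPS18 a single CC library stands at 1.80 CPM above all others, and in RPL39L the RC libraries stand at 47.1 to 49.0 CPM above the 3 CC libraries.

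After 2 days without drug the members lay between TC and CC. PC was compared with CC by the same test: 62 members were lower, with a background of 35.9%, 2 were higher (RPS26 and RPL41, background 33.2%) and 13 were not called. TC, PC and RC share the CC libraries, so the 3 comparisons with CC are not independent. The median was -0.45, or 0.733 times the CC level, beside -0.04 over all genes tested. A fall beyond 1.5-fold was called for 8 members (background 19.9%), or 5 without PC 1 and 3 in DESeq2, and a rise beyond it (background 17.2%) for 0, also at an unadjusted p under 0.05 and in DESeq2. Against TC, 66 of 77 had risen (background 12.2%) and 1, RPS4X, had fallen (12.5%). The median rise was 0.39, or 1.31-fold, beside 0.00 over all genes tested, and in 74 members every PC library lay above every TC library (background 23.7%). The rise passed 1.5-fold for 1 member, RPL12, against 2.33% of all genes, and for 0 without any 1 TC library, PC 2 or PC 3.

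After 9 days the members were still below CC, by less. In RC against CC, 56 members were lower (background 19.1%), 4 were higher (RPS26, RPL39L, RPL17 and RPS10; background 18.2%) and 17 were not called. The median was -0.26, or 0.832 times the CC level, beside 0.00 over all genes tested. With glmTreat 0 members were called lower beyond 1.5-fold (background 2.52%) and 0 higher (1.35%), where an unadjusted p under 0.05 gave 0 lower and 3 higher and DESeq2 gave 0 in both directions. A rise beyond 1.5-fold was called for 1 member without CC 2, RPS26, and for 1 other without CC 3, RPS10. From PC to RC, 37 members rose (background 35.7%), 7 fell (34.2%) and 33 were not called. The median change was 0.19, beside 0.01 over all genes tested, and a rise beyond 1.5-fold was called for 2 members, RPL17 and RPL39L (background 20.2%). RPL41 (-0.44 ± 0.07) and RPL28 (-0.40 ± 0.06) fell most.

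By group means, 50 members had the order CC, RC, PC and TC from high to low and 16 the order CC, PC, RC and TC. TC was lowest in 74 members and CC highest in 66. These orders were not counted over all genes tested, so no background can be set beside them. They also take in the members with few counts or uneven libraries, whose order is uncertain.

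A pair of ribosomal proteins that the symbols miss were lower in TC too. FAU, whose product is cleaved to RPS30, and RACK1, a scaffold on the 40S head, stood at log2 fold changes of -0.53 ± 0.07 (adjusted p = 4.81e-05) and -0.98 ± 0.05 (adjusted p = 5.78e-09). In RC, RACK1 was called lower (-0.47 ± 0.05, adjusted p = 4.45e-05) and FAU was not called (0.03 ± 0.07, adjusted p = 0.821). Of 4 further paralogs, RPL22L1 and RPL7L1 were lower in TC, and RPL26L1 and RPL36AL were not called there. RPL22L1 stood at 345, 396 and 363 CPM for CC, 149, 152 and 152 for TC, 179, 203 and 219 for PC and 367, 388 and 400.0 for RC. It fell in TC (-1.28 ± 0.08, adjusted p = 2.95e-08) and was not called in RC (0.07 ± 0.08, adjusted p = 0.530).

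The other known TOP mRNAs, which encode elongation and initiation factors and other proteins or host small nucleolar RNAs, were lower in TC for 21 of 24 genes and higher for 1, with a median of -0.86. In PC 19 were lower and 2 higher (median -0.50), and in RC 19 were lower (median -0.43). Over all genes tested, 34.7, 35.9 and 19.1% were lower in TC, PC and RC. The exception in TC was EEF1A1, the elongation factor that brings aminoacyl-tRNA to the ribosome, at 15548, 15194 and 13728 CPM for CC, 16467, 17002 and 16861 for TC, 20029, 20731 and 20645 for PC and 9690, 9975 and 10350 for RC. It was higher than CC in TC and PC, without overlap, and lower in RC. Its change was 0.18 ± 0.05 (adjusted p = 0.00753) in TC, 0.47 ± 0.05 (adjusted p = 4.56e-06) in PC and -0.57 ± 0.05 (adjusted p = 2.25e-05) in RC. EEF1B2, also called higher in PC, stood at 2.25, 3.15 and 173 CPM in PC, so that value was set by 1 library. The snoRNA host SNHG1 had the largest fall of the list (-2.46 ± 0.09), and NPM1 and HNRNPA1, low in TC (-1.38 ± 0.06 and -1.87 ± 0.09), were not called in RC.

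Of 21 regulators of TOP mRNAs and of ribosome synthesis, 7 were higher and 10 lower in TC, with a median of -0.15 (background 33.2 and 34.7%). MYC, a transcription factor that drives ribosome synthesis, stood at 55.7, 51.6 and 70.0 CPM for CC, 4.33, 3.68 and 5.43 for TC, 6.54, 6.41 and 5.99 for PC and 41.9, 41.8 and 41.8 for RC. TC and PC lay far below CC, and RC lay below CC by less. The change was -3.71 ± 0.15 (adjusted p = 8.81e-10) in TC and -0.50 ± 0.13 (adjusted p = 0.00975) in RC. The translation repressors that mTORC1 inactivates moved in opposite directions, with EIF4EBP1 at -1.73 ± 0.06 and EIF4EBP2 at 1.25 ± 0.07 in TC (adjusted p = 3.69e-10 and adjusted p = 8.99e-09). LARP1 changed by -0.71 ± 0.15 (adjusted p = 0.00125), MTOR by 0.44 ± 0.06 and the S6 kinase RPS6KB1 by 1.17 ± 0.07. UBTF, the factor of ribosomal DNA transcription, was higher in TC (0.55 ± 0.05).

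Of 14 chaperones and importers of ribosomal proteins tested, 11 fell in TC (background 34.7%) and 1, TSR2, rose (33.2%), with a median of -0.46. The importins KPNB1 (-0.97 ± 0.07), IPO7 (-0.96 ± 0.07) and IPO5 (-0.87 ± 0.08) fell, and TSR2, the chaperone of RPS26, rose by 0.51 ± 0.08 in TC (adjusted p = 9.49e-05). TSR2 stood at 22.9, 28.3 and 25.5 CPM for CC, 38.5, 36.4 and 34.4 for TC, 37.1, 37.6 and 37.5 for PC and 30.2, 31.4 and 30.4 for RC, with TC, PC and RC above every CC library. In RC 5 of the 14 were higher (background 18.2%) and 4 lower (19.1%). Of the 4 genes of the MDM2 and p53 checkpoint, 1, MDM4, was lower in TC (-0.46 ± 0.07), and MDM2 (-0.13 ± 0.11) and CDKN1A (-0.09 ± 0.07) were not called. Of 13 ribosome rescue and stalling genes tested, 4 were higher and 6 lower in TC (background 33.2 and 34.7%), with a median of -0.15.

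**Figure D5:**
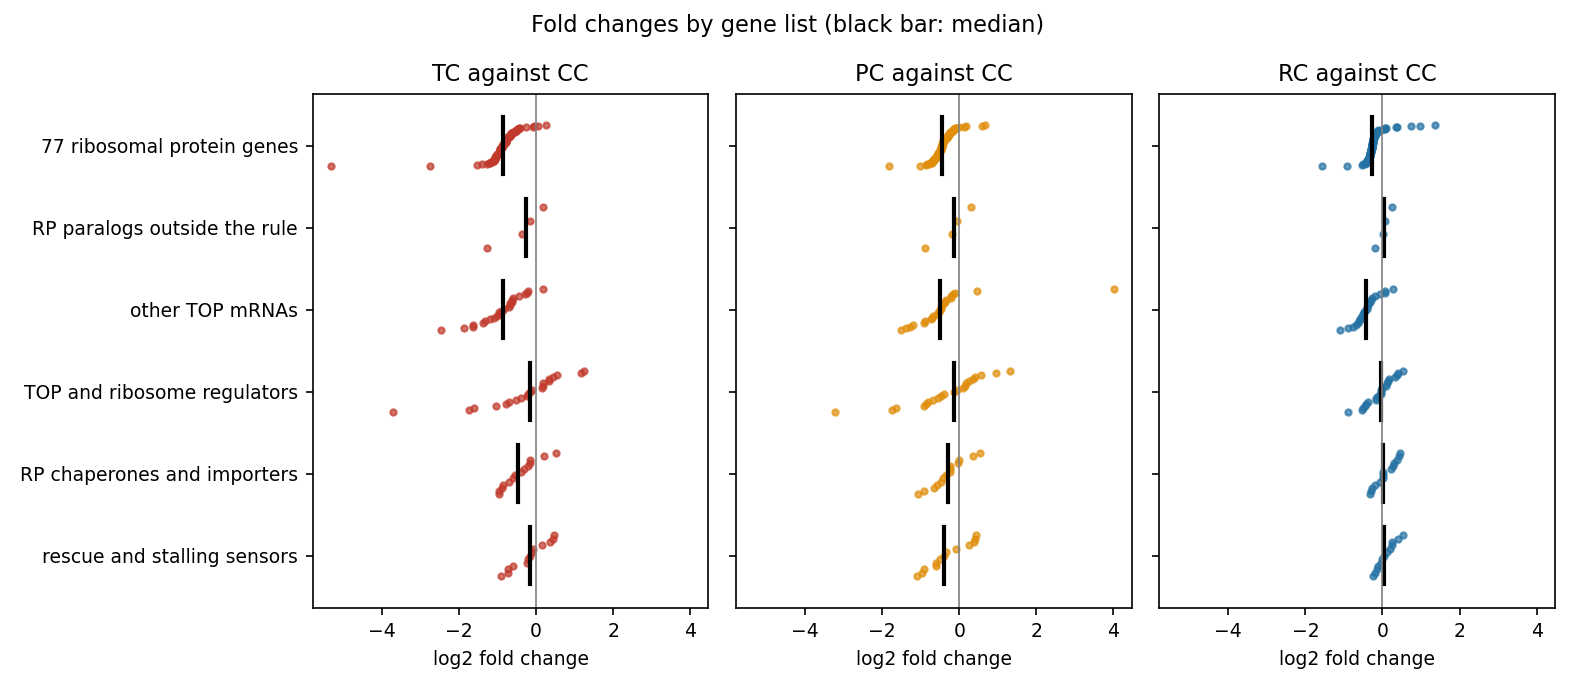
Log2 fold change against CC (x axis, the same in the 3 panels) of the 77 members and of each tested gene of 5 lists (rows), in TC, PC and RC; points are genes and black bars medians. The median of the other TOP mRNAs in TC, -0.86, is close to that of the 77 members, -0.87, while the regulators spread on both sides of 0; the isolated point of that TOP list in PC is EEF1B2.

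The coding sequences of the members had the make-up known for ribosomal proteins. In the canonical transcripts, the median member was 869 bases long with 152 codons, against 3288 bases and 478 codons in the tested genes. Lys and Arg took a median of 21.7% of codons, against 11.5%, and Asp and Glu 8.94%, against 11.9%. The share of codons ending in A or T was 41.7%, against 41.2%.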

How the data were processed

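RNA of A375 cells, depleted of ribosomal RNA, was sequenced as paired reads in 12 libraries. The authors trimmed reads with fastp 0.20.1, aligned them to GRCh38.p13 with HISAT2 2.2.1 and counted reads on exons with HTSeq 0.13.5. The deposited values are these raw counts per gene. Strand setting and the treatment of reads with several alignments are not given in the sources used here.

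Counts were tested with edgeR 4.0.16 (R 4.3.3): TMM factors, 1 fit over the 4 groups without covariates (8 residual degrees of freedom), glmQLFTest, and glmTreat for changes beyond 1.5-fold. Genes with a mean scaled count of at least 10 were tested, and p-values were adjusted by the Benjamini-Hochberg method over all 15916. CPM use TMM-normalized library sizes. The shares of counts are descriptions with no test. In counts simulated for TC against CC over 15803 genes, 71 of 79 genes changed 4-fold, 58 of 87 changed 2-fold and 7 of 15604 unchanged genes were called. Only 199 genes were changed in that simulation, while in the data 5522 genes were called lower and 5285 higher in TC. Its rates of calls therefore do not carry over to the data. Calls of genes changed by 1.5-fold in it are not given here.

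The members and gene lists were chosen with earlier results of these data known. Named genes were the P stalk, RPSA, the paralogs and their parents, 9 genes of known further roles, the 3 called members with the largest rise and fall in each of 5 comparisons, the 5 members with the highest level per length in CC, and listed genes. RPS3, RPL7A and RPS3A were named after their values were seen. Some genes that enter the counts and medians are not reported by name here. Alternatives were other scaling factors, DESeq2 1.42.0, other filters, a fit of only the groups compared, a replicate block, and each library left out.

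Libraries of 1 group differed by more than sampling noise (chi-square per degree of freedom of 10.8 to 80.6).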

Additional observations from a re-analysis of the deposited data

How the results depend on the processing

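The falls in TC, PC and RC against CC and the rise from TC to PC kept their direction, and the counts of members lower in TC, PC and RC stayed within 1.5 times, under every alternative run. Smaller counts moved, and the cause was not tested. With only the 2 groups compared, 0 members were higher in TC, 1 in PC and 2 in RC, and 3 were lower beyond 1.5-fold in PC. Genes with a summed count of at least 2 gave 1 member higher in PC, 3 lower beyond 1.5-fold in PC, 0 higher beyond 1.5-fold from TC to PC and 2 lower from PC to RC. DESeq2 gave 3 members lower beyond 1.5-fold in PC and 1 higher beyond it from PC to RC. Members with a mean count of at least 1000, a limit added after seeing the data, gave 2 higher in RC and 1 higher beyond 1.5-fold from PC to RC. Outside mitochondrial rRNAs and tRNAs, the share was 4.17% in TC and 5.40% in PC.

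Leaving out 1 library gave 0 to 1 members higher in TC, 1 to 3 higher in PC, 0 to 1 higher beyond 1.5-fold in PC (RPS10, without CC 3), 5 to 8 lower beyond it in PC, 0 to 1 higher beyond it in RC and 0 to 1 higher beyond it from TC to PC. The RC median ran from -0.30 to -0.21 (without CC 2). Values reversed for 3 members that were not called: RPL38 in RC (-0.11 to 0.028, highest without CC 2), RPS27L in TC (-0.15 to 0.020, highest without CC 2) and RPSA in RC (-0.0060 to 0.15, lowest without CC 3). Of 2260 alternatives for 119 results of single members, 96 lost a call and 20 gained one.

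Deviations from the group means correlated at -0.04 to 0.16 for libraries of the same replicate number and -0.12 to 0.04 for different numbers, with medians of 0.01 and -0.01. The column labels carry the same numbers in every group. Such correlations in groups of 3 libraries cannot show whether the samples were paired. With the number as a replicate block, 73, 63 and 54 members were lower in TC, PC and RC, 68 were higher from TC to PC and 38 from PC to RC.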
